A study of Mus musculus with 15 samples.

Results

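A panel of 10 marker genes of Kupffer cells and other macrophages was followed across mouse livers on single-colour microarrays. The genes were Clec4f, Cd5l, Marco, Vsig4, Timd4, Cd163, Emr1, Cd68, Csf1r and Lyz2. Their probes were all those on the array, controls left out, whose annotated gene name is one of these symbols. This gave 13 probes for 10 genes, out of 55681 probes and 22032 gene symbols on the array. The study asked how forced expression of Gas1, a gene that arrests the cell cycle, changes livers carrying chemically induced hepatocellular carcinoma. All animals were male CD1 mice, and all received weekly hydrodynamic injections of 50 µg plasmid from week 28 to week 34, a method that pushes DNA into the liver through the blood vessels. Group C was given saline and the empty plasmid. Group T was given diethylnitrosamine (DEN), a liver carcinogen, at day 15 after birth, and later the empty plasmid. Group G was given DEN in the same way, and later pcDNA3/CAG-HAGas1, in which the ubiquitous CAG promoter drives HA-tagged Gas1. The livers were taken at week 35 according to the methods, whereas the sample records give an age of 10 weeks. Each sample was RNA of whole liver tissue, hepatocytes, tumour and all other cells together, and delivery by this route reaches mainly cells close to blood vessels.

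Kupffer cells are the resident macrophages of the liver. They sit in the sinusoids, where they take up bacteria, old red cells and cell debris from the blood, and in adult mice most of them descend from embryonic precursors, while blood monocytes can enter the liver and take on parts of the same programme. Clec4f, a C-type lectin, is restricted to Kupffer cells in the mouse. Cd5l, a secreted protein that keeps macrophages alive, Marco, a scavenger receptor for bacteria, Vsig4, a receptor for complement C3 fragments, Timd4, a receptor for phosphatidylserine on dying cells, and Cd163, the receptor for haemoglobin bound to haptoglobin, also mark resident cells. Emr1, now called Adgre1, the classic surface antigen of mouse macrophages, Cd68, a lysosomal membrane protein, Csf1r, the receptor for the growth factors Csf1 and Il34, and Lyz2, the myeloid lysozyme, are shared by macrophages of many tissues and by monocytes. In RNA of whole liver, fewer cells of a type and less RNA per cell cannot be told apart.

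Each probe is a 60-base oligonucleotide, and the first 30 bases are given for those on which the results turn, namely the resident markers measured on all arrays and both probes of Emr1, which behaved differently. All are written in the direction of the deposited design, with the positions that the files give for mm9. Exon and UTR annotation of that build was not used here.
Clec4f, chr6:83595281-83595339, minus strand: aactggagacataggaacggagagcgagaa
Cd5l, chr3:87174823-87174882, plus strand: atggtagagacttgaggagttgggacctcg
Marco, chr1:122371115-122371134, minus strand: gagcccgagaggtcatcagtgtgtccccag
Vsig4, chrX:93442598-93442657, minus strand: ggattactcctctttctctagggccagatg
Emr1, first probe, chr17:57620350-57620409, plus strand: atgaatataagaaactcctcaccaggaaga
Emr1, second probe, chr17:57622868-57622927, plus strand: ggtgttccagaaattctcatttaataccca
Of the remaining genes, Csf1r had 3 probes, and Timd4, Cd163, Cd68 and Lyz2 had 1 each. The single position given for Marco is shorter than its probe. Lyz2 has a closely similar neighbour, Lyz1, and whether the probe also binds its RNA was not tested.

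The C, T and G groups had 4, 5 and 6 arrays, 15 in all, spread over 2 slides so that either slide carried every group. One RNA code was shared by arrays 3 and 4 of the controls and another by arrays 4 and 5 of T. The arrays of each such pair were closer to each other than to the rest of their group, with a ratio to the next closest pair of 0.500 for the controls and 0.615 for T. Each pair was averaged, which left 3, 4 and 6 livers (C1 to C3, T1 to T4 and G1 to G6). The number of spots well above background, the measure of signal on an array without read depth, lay between 15707 and 29765 of 59305, and the lowest number was that of liver C2. Values are background-corrected, quantile-normalized log2 signals, so 1 unit is a 2-fold difference, and a signal near the background is held close to 5.64 by the correction. The targeted gene did not tell the groups apart, since Gas1 had log2 signals of 6.53 ± 0.20 in C (mean ± SD, n = 3), 6.53 ± 0.09 in T (n = 4) and 6.61 ± 0.11 in G (n = 6), and G exceeded T by 0.08 (SE 0.08, adjusted p = 0.765 in limma). The groups are therefore those of the sample records. The paper detected HA-Gas1 RNA and protein in liver after such injections, by RT-PCR and Western blot. Whether the array measurement of Gas1 reads the injected construct was not tested.

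Detection set what each marker can show. Clec4f, Cd5l, Marco, Vsig4 and Csf1r were well above background on all 15 arrays. Emr1 was so on 13, Lyz2 on 10, Cd68 on 4 and Timd4 on 1, and Cd163 on none. In all, 9 of the 10 genes exceeded background on at least 1 array, and no filter on dim genes was applied. Cd163 and Timd4 stayed between 5.85 and 6.18 in every liver with a value, so the difference between groups given for these genes is one between near-background signals. The spot of Timd4 was missing in liver T2, where it had an outlier flag.

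In the comparison of DEN-treated livers with controls, Emr1 was the 1 member that passed the test, at 1.24-fold in group T. Marco and Vsig4 had the largest positive differences, 1.77-fold and 1.44-fold, but these did not pass after adjustment over all genes. Cd68 had a log2 difference of -0.25, which did not pass either and lies between signals that were above background on 1 of 4 arrays of group C and 0 of 5 of group T. Clec4f, the most specific marker of Kupffer cells in the panel, differed by -0.06 on the log2 scale. In the comparison of Gas1-treated with DEN-treated livers no member passed, and none had an unadjusted p under 0.05, beside 10.8% of all genes. Across the array, 2.37% of genes were called in T against C, 0.132% in G against T and 0.427% in G against C, in either direction, beside 1 of 10, 0 of 10 and 0 of 10 members.

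Clec4f had log2 signals of 9.13, 8.96 and 8.97 in livers C1 to C3, of 9.29, 8.98, 9.07 and 8.50 in T1 to T4, and of 8.81 to 9.38 in group G (median 9.19). All 3 control livers lay inside the range of group T, and liver T4 was the lowest of all 13. The difference of T against C was -0.06 (SE 0.19, 95% interval -0.46 to 0.34, adjusted p = 0.905). This sign does not hold under other scalings, with 0.80 after scaling each array to its median and 0.11 with the processed signal of the scanner software. The median over genes above background on all arrays was then itself 0.65 and 0.09, and Clec4f lay 0.15 and 0.017 above it.

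Cd5l ranged from 9.17 to 9.85 in group C, with the lowest value in liver C2. Group T gave 9.81, 10.06, 10.13 and 9.33 in T1 to T4, and group G lay between 9.15 and 10.24 (median 9.80). The groups overlapped over nearly the whole range. The difference of T against C was 0.29 (SE 0.27, 95% interval -0.29 to 0.86, adjusted p = 0.599), and it was 0.10 without liver C2, 0.45 without C1, 0.19 without T3 and 0.46 without T4.

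Marco was at 8.01, 7.10 and 7.68 in livers C1 to C3 and at 8.66, 8.55, 7.72 and 8.75 in T1 to T4. Livers T1, T2 and T4 exceeded every control liver, whereas T3 lay within the control range. Group G spanned 7.70 to 8.95 (median 8.18), with G6 near the controls and G4 the highest of all livers. The log2 difference of T against C was 0.83 (SE 0.32, 95% interval 0.14 to 1.52), with an unadjusted p of 0.0228 and an adjusted p of 0.173. Against C, the difference of group G was 0.69 (SE 0.30, adjusted p = 0.339).

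Vsig4 gave 8.22, 7.36 and 8.12 in the control livers, 8.71, 8.38, 8.64 and 7.98 in T1 to T4, and 8.13 to 8.67 in group G (median 8.38). Liver C2 was the lowest of all 13 livers, and T4 lay between it and the other controls. The log2 difference of T against C was 0.53 (SE 0.22, 95% interval 0.06 to 1.00), with an unadjusted p of 0.0311 and an adjusted p of 0.199. Liver C2 carried much of it: without that liver the difference was 0.26 for Vsig4 and 0.58 for Marco. Liver C2 was also the one with the fewest spots above background, and the part of this in the result was not tested.

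Timd4 lay between 5.85 and 6.08 in group C, between 5.90 and 6.18 in the 3 livers of group T with a value, and between 5.98 and 6.14 in group G. Its only array above background was that of liver G4. Cd163 lay between 5.97 and 6.12, 5.85 and 6.12, and 5.86 and 6.14 in the same order. No fold is given for either gene.

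Emr1 was at 6.17, 6.08 and 6.28 in livers C1 to C3 and at 6.49, 6.46, 6.55 and 6.41 in T1 to T4. Group G lay between, from 6.30 to 6.48 (median 6.36). Every T and every G liver exceeded every C liver, while G and T overlapped. The log2 difference of T against C was 0.31 (SE 0.06, 95% interval 0.18 to 0.44, adjusted p = 0.0267 in limma). It was 0.20 for G against C (SE 0.06, unadjusted p = 0.00287, adjusted p = 0.137), and -0.10 for G against T (SE 0.05, 95% interval -0.21 to 0.01, adjusted p = 0.502).

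The 2 probes of Emr1 did not give the same picture. The second was above background on 2 of 4 control arrays, on all 5 of group T and on all 6 of group G, and signals were 6.04 to 6.33 over the control livers, 6.58 to 6.72 over T1 to T4 and 6.44 to 6.65 over G1 to G6. Over the 29522 probes tested one by one, its difference was 0.46 for T against C (SE 0.08, adjusted p = 0.0127) and 0.36 for G against C (adjusted p = 0.0474). The first probe was above background on 6 arrays in all, and its difference of T against C was 0.15 (SE 0.07, adjusted p = 0.267). The control level of both is near background, where the correction compresses differences.

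The call of Emr1 was lost in 4 of the 13 fits that left out 1 liver, while the difference stayed between 0.26 and 0.36. Those 4 fits called 95 to 200 of all genes, against 523 with every liver. The adjusted p was 0.0814 without C1, 0.0798 without C2, 0.0553 without T2 and 0.0798 without T3, with differences of 0.26 to 0.31. Within slide 1, with arrays 2 and 3 of C and 2 and 4 of T, the difference was 0.26 (adjusted p = 0.320). Within slide 2, with arrays 1 and 4 of C and 1, 3 and 5 of T, it was 0.26 (adjusted p = 0.167). Livers C3 and T4 had an array on either slide, so the slides are not independent. With the processed signal of the scanner software, which does not hold up the dim values, the difference was 0.88 (adjusted p = 0.0764).

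Cd68 was above background on few arrays. Its log2 signal was 6.43, 6.52 and 6.15 in C1 to C3, 6.05, 6.06, 6.22 and 6.12 in T1 to T4, and 6.09 to 6.26 in group G. Livers C1 and C2 stood above all others, and C3 lay within the other groups. The difference was -0.25 for T against C (SE 0.08, unadjusted p = 0.0067, adjusted p = 0.101) and -0.20 for G against C (SE 0.07, adjusted p = 0.260). However, C3 was the only control liver with an array above background, and no array of group T was. The signals of Cd68 are thus mostly at background level, and no fold is given.

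Csf1r lay between 7.71 and 7.99 in group C, between 7.87 and 7.99 in group T and between 7.77 and 8.0 in group G. Livers of all groups shared the same narrow range, and the difference of T against C was 0.06 (SE 0.08, 95% interval -0.11 to 0.23, adjusted p = 0.71). Its 3 probes gave 0.09, 0.06 and 0.04. Lyz2 lay between 6.25 and 6.38 in group C, between 6.33 and 6.65 in group T and between 6.12 and 6.82 in group G. Its difference of T against C was 0.12 (SE 0.14, 95% interval -0.19 to 0.43, adjusted p = 0.699), and liver G4 was the highest.

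**Figure D1:**
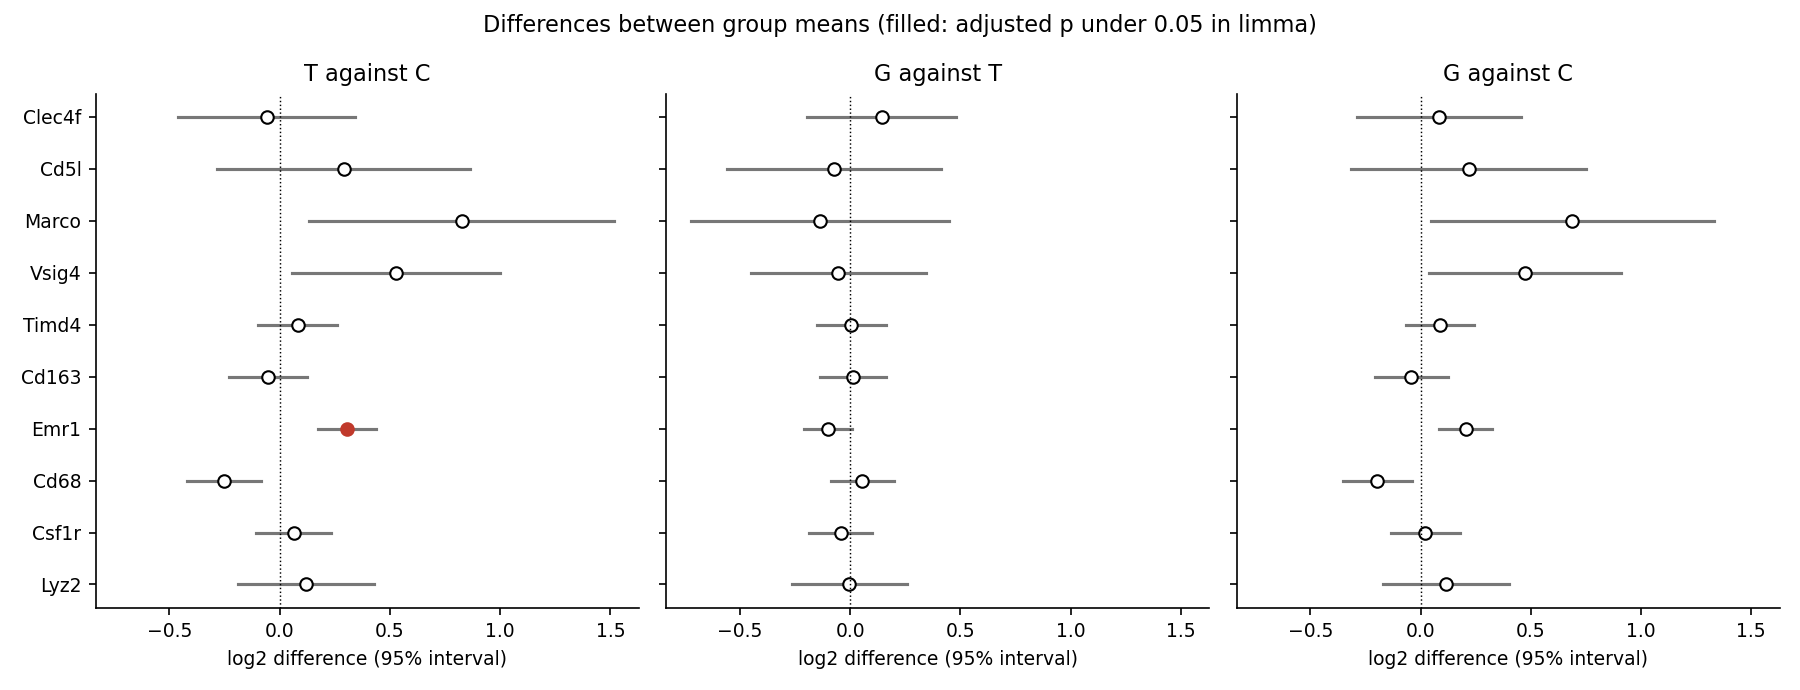
Log2 difference between group means for each marker (points) with its 95% interval (lines), in each of the 3 comparisons. Emr1 in T against C, at 0.31, is the only filled point, that is, the only adjusted p under 0.05, and all 10 intervals for G against T include 0.

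The members can be read against the array as a whole. In T against C, 7 of 10 members had a difference above 0 and the median was 0.10, while the median of all genes was 0.01. An unadjusted p under 0.05 was found for 4 members, Marco, Vsig4, Emr1 and Cd68, and for 20.2% of all genes. The livers of both groups did not overlap in 1 member, Emr1, and in 19.0% of all genes.

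Gas1-treated livers were set against livers that had received DEN and the empty plasmid, and no member passed the test. Differences of G against T ran from -0.14 for Marco to 0.14 for Clec4f, with a median of -0.02 against -0.01 for all genes. The lowest adjusted p was 0.502. The livers of G and T overlapped in all 10 members, and 3.06% of all genes did not overlap. The intervals leave room for differences of either sign, from -0.20 to 0.48 for Clec4f, -0.56 to 0.41 for Cd5l, -0.72 to 0.45 for Marco and -0.45 to 0.35 for Vsig4.

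Group G set against C gave values side by side with those of T, and both comparisons share the 3 control livers. Marco was at 0.69 and 0.83, Vsig4 at 0.47 and 0.53, Emr1 at 0.20 and 0.31, Cd68 at -0.20 and -0.25, and Clec4f at 0.08 and -0.06, for G against C and T against C respectively. Without liver C2, the differences of G against C were 0.44 for Marco and 0.20 for Vsig4. An unadjusted p under 0.05 was again found for 4 members and for 13.3% of all genes, none of these members passed after adjustment, and the lowest adjusted p was 0.137 for Emr1. The livers of G and C did not overlap in 1 member, Emr1, and in 5.85% of all genes.

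Within the groups, some markers moved together from liver to liver. After subtraction of the group means, Pearson's r over the 13 livers was 0.78 between Clec4f and Cd5l, 0.76 between Cd5l and Vsig4, 0.76 between Clec4f and Vsig4, 0.72 between Cd5l and Csf1r and 0.71 between Vsig4 and Emr1. Marco did not follow them, with an r of -0.03 to Clec4f, -0.16 to Cd5l and 0.19 to Vsig4. Over the 10 pairs of markers measured on all arrays the median r was 0.51, and over all 45 pairs it was 0.14. These correlations are descriptions, and the values of a liver share its array, whose signal varied. The number of spots above background had an r, without subtraction of group means, of 0.56 with Timd4, 0.56 with Lyz2, 0.53 with Vsig4, 0.52 with Cd5l, 0.41 with Clec4f and -0.42 with Cd68, and of 0.20 to 0.33 with the other members.

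The livers apart from the rest were the same for several genes. Liver T4 was the lowest of group T in Clec4f, Cd5l and Vsig4 and the highest of group T in Marco. Liver G1 was the lowest of group G in Cd5l, at 9.15, and the second highest of group G in Marco, at 8.71. Conversely, liver G6 was the highest of group G in Cd5l, at 10.24, and the lowest in Marco, at 7.70. Liver C2 was the lowest control in Clec4f (8.96 against 8.97 in C3), Cd5l, Marco, Vsig4, Cd163, Emr1 and Csf1r, and the highest in Cd68 and Lyz2.

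**Figure D2:**
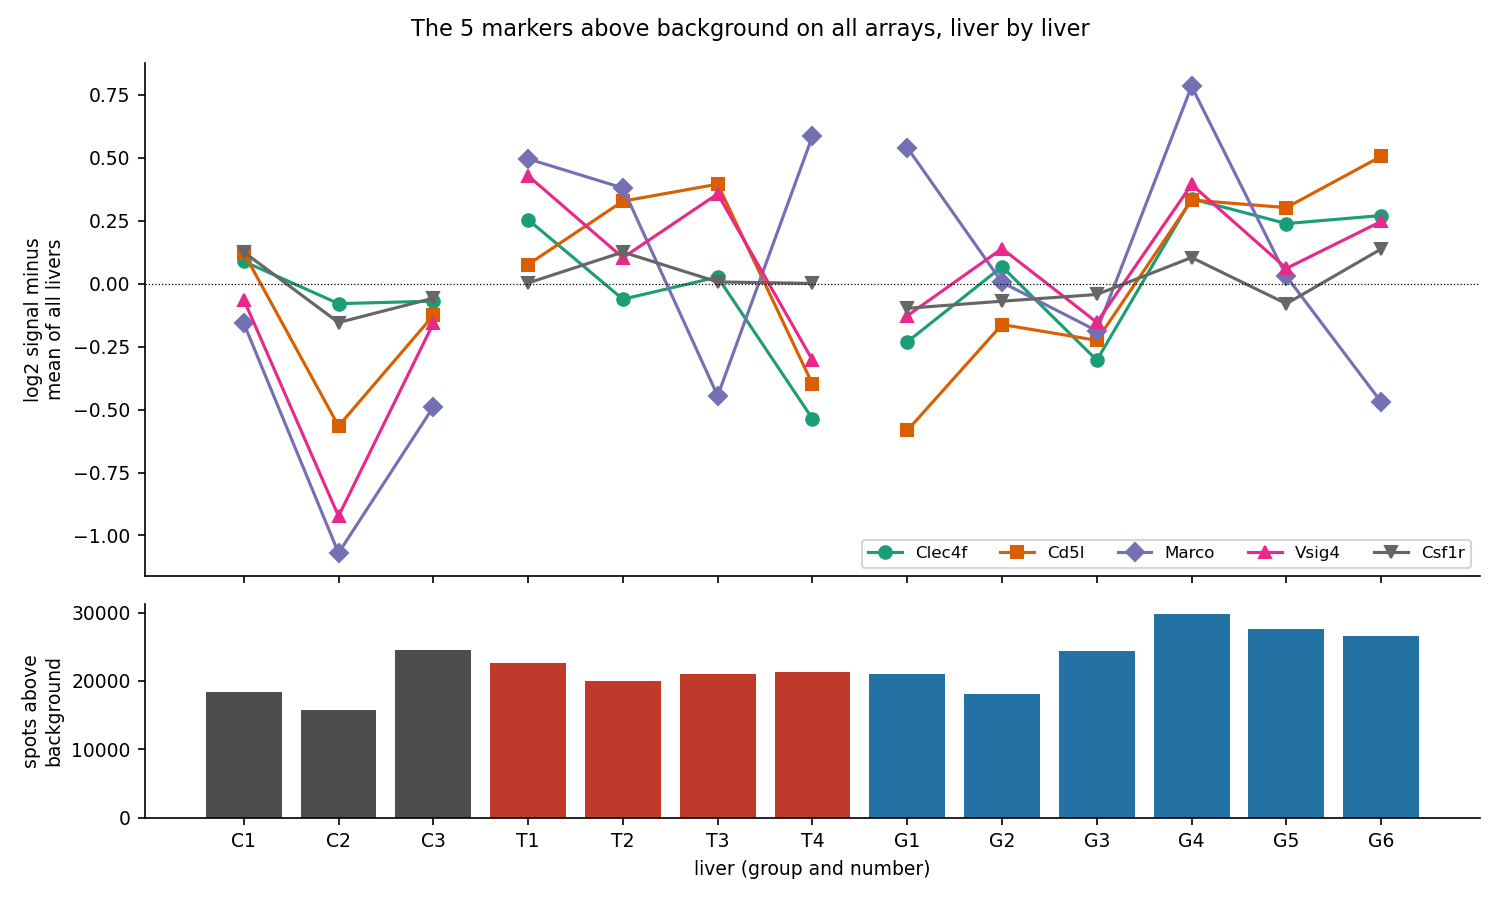
Log2 signal minus the mean of all 13 livers for the 5 markers above background on all arrays (upper panel) and spots above background per liver, the mean of both arrays for C3 and T4 (lower panel). Clec4f, Cd5l and Vsig4 drop together in T4 and are high together with Marco in G4, while Marco alone is high in T4 and G1 and low in T3 and G6.

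Among 7940 other genes measured on all arrays, the 5 whose profile was most like the mean of the 6 resident markers, with group means subtracted, were Pid1 (r = 0.92), C1qc (r = 0.89), Lilra6 (r = 0.89), Tm9sf4 (r = 0.89) and Gdf2 (r = 0.88). C1qc encodes a chain of complement C1q, which macrophages make, and kept an r of 0.93 over the livers without that subtraction, while Pid1 then had 0.50. For the mean of Emr1, Cd68, Csf1r and Lyz2 the 5 were Ada (r = 0.92), Lce1a2 (r = 0.91), Aldh3a1 (r = 0.90), Gsn (r = 0.88) and Slpi (r = 0.87). All were picked as the highest of 7940 over 13 livers, and their r was not tested. The resident mean includes Timd4 and Cd163, and the broader mean Cd68, all mostly at background level.

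Further genes of Kupffer cells and macrophages were taken as lists. Their counts at an unadjusted p under 0.05 stand beside 20.2% of all genes in T against C, 10.8% when G is set against T, and 13.3% when it is set against C. Of 14 other Kupffer cell genes, none passed in any comparison, with a median log2 difference of 0.17 in T against C, 0.04 in G against T and 0.15 in G against C, and 1, 2 and 3 of them had an unadjusted p under 0.05 in limma. The lowest p in T against C belonged to Msr1, a scavenger receptor, which lay between 6.20 and 6.38 in group C and between 6.30 and 6.55 in group T (difference 0.22, SE 0.07, adjusted p = 0.111). Slc40a1, the iron exporter ferroportin, had the lowest in G against C, with 9.89 to 10.54 in group C and 10.34 to 11.07 in group G (difference 0.56, SE 0.16, adjusted p = 0.146).

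Of 16 general macrophage genes none passed either, and the medians were 0.13, -0.04 and 0.07 in the same order, with 6, 3 and 4 genes at an unadjusted p under 0.05. Cd14, the co-receptor for endotoxin, lay between 6.64 and 6.67 in group C and between 6.84 and 6.98 in group T, over the 2 livers of C and 3 of T that had a value (difference 0.26, SE 0.08, adjusted p = 0.102). Mpeg1, which encodes a pore-forming protein of phagosomes, had the lowest p of the list in G against T, with 8.87 to 10.57 in group T and 7.83 to 9.06 in group G (difference -0.90, SE 0.31, adjusted p = 0.306). Mertk, a receptor for the uptake of dead cells, had it in G against C (difference 0.32, SE 0.10, adjusted p = 0.188).

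The ligands of Csf1r and the transcription factors of macrophages formed a list of 12 genes, with no call, medians of 0.10, 0.07 and 0.09, and 4, 0 and 3 genes at an unadjusted p under 0.05. Id3, a factor required by Kupffer cells but expressed by other liver cells too, had a difference of -0.76 in T against C (SE 0.24, adjusted p = 0.103). Il34 had the lowest p in G against T (difference 0.20, SE 0.10, adjusted p = 0.501).

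Among 11 measured monocyte and recruitment genes, 1 passed, in T against C, where 2.37% of all genes did. The medians were -0.08, -0.03 and -0.11, with 4, 2 and 2 genes at an unadjusted p under 0.05. Spn, the leukocyte sialoglycoprotein CD43, was lower in group T, at 6.02 to 6.18, than in group C, at 6.35 to 6.48 (difference -0.29, SE 0.06, adjusted p = 0.0363), and it was above background on 8 of 15 arrays. Ly6c1, which monocytes and endothelium carry, had the lowest p in G against C (difference -1.83, SE 0.44, adjusted p = 0.0993), and the control livers ranged from 8.03 to 11.06. Chi3l3 had it in G against T (difference -0.42, SE 0.15, adjusted p = 0.304). Of 12 activation genes none passed, with medians of 0.04, -0.06 and -0.02 and 2, 3 and 1 genes at an unadjusted p under 0.05. Trem2, a lipid receptor, lay between 6.05 and 6.35 in the controls, between 6.42 and 6.65 in group T, and between 5.89 and 6.46 in group G, with differences of 0.39 in T against C (adjusted p = 0.101) and -0.27 in G against T (adjusted p = 0.350). Spp1 had the lowest p in G against C (difference 0.46, SE 0.18, adjusted p = 0.291).

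**Figure D3:**
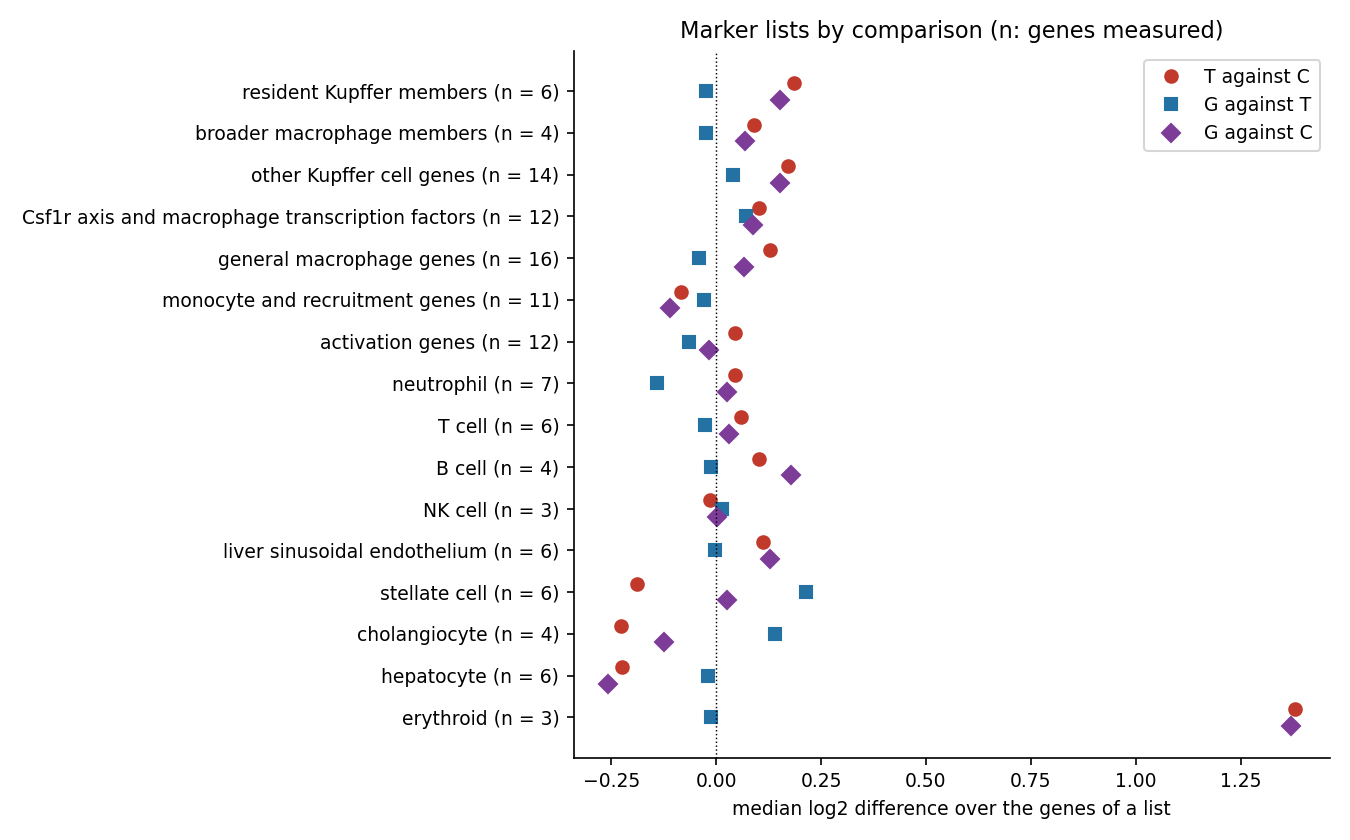
Median log2 difference over the measured genes of each marker list (n in brackets) for the 3 comparisons. The macrophage lists lie between -0.11 and 0.19 in every comparison, whereas the 3 erythroid genes have medians of 1.38 in T against C and 1.37 in G against C.

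Markers of other cells were read in the same livers. The summed signal of 3 erythroid genes was 12.94 to 13.73 in group C, 13.99 to 14.38 in group T and 13.22 to 15.18 in group G on the log2 scale. The globin genes Hbb-b1 and Hba-a1 had differences of 1.89 (SE 0.59, adjusted p = 0.104) and 1.38 (SE 0.49, adjusted p = 0.146) in T against C, while Alas2, which encodes an enzyme of haem synthesis, had -0.14 (SE 0.17, adjusted p = 0.702). The summed signal did not overlap between groups C and T but did between C and G, while Emr1 overlapped in neither. In T against C, 19.0% of all genes did not overlap. Among 6 hepatocyte genes, all of them above background on every array, Ttr, the carrier of thyroxine, was lower in group T (difference -1.0, SE 0.12, adjusted p = 0.00425), and no other gene of the list passed. Apoa1, an apolipoprotein, had the opposite sign without overlap (difference 0.55, SE 0.15, adjusted p = 0.0657), Tat was at 0.23, and the median of the list was -0.23. Their summed signal, lower in every T and G liver than in every C liver, was 19.24 to 19.32 in group C, 18.78 to 19.20 in group T and 18.85 to 19.14 in group G. These sums add the signals before the log2 step, so the brightest genes of a list weigh most. Alb, the brightest hepatocyte gene, was at 18.19 to 18.23, 17.59 to 18.19 and 17.65 to 18.14 in C, T and G. For 7 neutrophil genes the summed signal was 11.52 to 11.94, 11.62 to 12.60 and 11.38 to 12.98. The brightest of these, Csf3r, was at 11.22 to 11.67, 11.24 to 12.37 and 11.02 to 12.85. The median difference of the neutrophil list was 0.05 in T against C. In that comparison S100a9 was at 1.36 (SE 0.46, adjusted p = 0.130), S100a8 at 0.58, Csf3r at 0.15, Mpo at 0.05, Elane at -0.02, Camp at -0.19 and Ngp at -0.31. No gene of the lists for neutrophils, T cells, B cells, NK cells, sinusoidal endothelium, stellate cells or cholangiocytes passed in any comparison, and in T against C these lists held 2, 0, 2, 0, 1, 1 and 3 genes at an unadjusted p under 0.05. In T against C their lowest p belonged to S100a9, Cd3g, Cd79a, Klrd1, Lyve1, Dcn and Krt7 in that order, with adjusted p from 0.0675 for Cd79a to 0.521 for Klrd1. The part of blood content, hepatocyte share or array signal in the result for Emr1 was not tested.

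Promoter windows from RefSeq (GRCm38.p6), 300 bases each around the gene start, were searched for the members except Csf1r, which was left out. No window was found for Emr1 under its current name, so 8 of the members were covered. The letters GAGGAA, found in many sites of the macrophage factor PU.1, stood on either strand in 4 of these, Cd5l, Cd68, Marco and Vsig4, and in 28.3% of all 32851 windows. The longer GAGGAAGT, which contains it, was in none of the 8 and in 3.2% of all.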

How the data were processed

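As deposited by the authors, each array (Agilent, single-colour) has a file of Feature Extraction 10.7.3.1 with the intensity of every spot and its local background, not normalized between arrays. The authors also gave log2 values for the whole series, made with normexp background correction and quantile normalization. From the deposited intensity, mean signals were background-corrected by normexp at an offset of 50, log2-transformed and then quantile normalized over 59305 non-control spots. Spots with an outlier flag were set to missing. Probes of a gene were centred and averaged, and arrays of one RNA code were averaged when the spread of their difference was under 0.7 times that of the next closest pair. The RNA extraction is TRIzol in the sample records and a spin-column kit in the methods.

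Differences were tested in limma (version 3.58.1, under R 4.3.3, with the package data.table at 1.17.8), using 1 model of 3 group means, adjusted by Benjamini-Hochberg over all 22032 gene symbols, with a threshold of 0.05. The script was tested on simulated data. Intervals are at 95% and not adjusted. Nothing in the records says whether samples with different RNA codes came from separate animals beyond their numbering, so p-values measure the spread between these samples. The small number of livers limits the precision. All members and, from each list, up to 3 called genes with the largest difference, or else the gene with the lowest p, were named. One gene that this rule selects is not reported here. The members and lists were chosen with earlier results of these data known. Alternatives covered scaling, the processed intensity, the authors' own log2 values, a filter on dim probes (above background on 3 arrays), slides, probe averaging, a t-test per gene and leaving out each liver. For the arrays the methods name the multtest package, which was not run here.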

Additional observations from a re-analysis of the deposited data

Results flagged for a closer look

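Of 19 groups of 4 or more livers tested for a liver far from the others, 2 were found, and chance finds about 1 in 20. Csf1r in group T was at 7.99 in liver T2, against 7.87 in the nearest liver, a gap of 0.951 of the range of the group. Lyz2 in group T was at 6.65 in liver T1, against 6.38 in the nearest, a gap of 0.845 of the range.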

How the results depend on the processing

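There were 25 other settings per comparison, 13 of them leaving out 1 liver, and 681 of 744 member values kept their direction and side of the threshold. The count of members called in T against C, 1 with Emr1, was 4 after median scaling and 0 with the processed signal. It was 0 on slide 1 alone, 0 on slide 2 alone and 0 with a t-test per gene. These fits called 46, 17 and 0 of all genes in that order. The member count was 0 to 2 when 1 liver was left out (0 without C1, C2, T2 or T3, and 2, Emr1 and Cd68, without C3). Every fit of T against C with no member called also called fewer genes over the whole array than the main fit. A count of 0 there does not single out the members. The fit without T4 called fewer genes in all too, but kept Emr1. In G against T the member count was 0 throughout. In G against C it was 1 with the brightest probe of each gene (Emr1) and 0 to 1 when 1 liver was left out (1, Cd68, without C3). Median scaling moved the median of all genes in T against C to 0.12, and that of the 8493 genes on all arrays to 0.65, and called 2861 genes higher and 15 lower, against 259 and 264 otherwise. Relative to that 0.65, Clec4f was at 0.15, Cd5l at 0.56, Marco at 0.77, Vsig4 at 0.53 and Csf1r at -0.07. The processed signal moved the median of all genes to -0.40 in T against C and called 57 genes. Same-numbered samples had r of -0.31 to 0.27, and in 4 of 13 such pairs the own number was the best match. In G against C, r was 0.13, 0.12, 0.27 and 0.08 for numbers 1 to 4. The main fit did not treat replicate numbers as pairs. A fit with the replicate block on 15 arrays called 2 members in T against C (Marco and Emr1) and 1606 genes in all. All 15 arrays as separate livers called 1949 genes, the authors' own values 565, slides as a block 814, and the filter on dim probes 754 of 13639. That filter left no value for Timd4 and Cd163.

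Uncalled differences that changed sign were as follows, and the cause was not tested. In T against C, Clec4f was 0.80 with median scaling and 0.11 with the processed signal, Timd4 -0.41 with the processed signal and -0.14 on slide 1, Cd163 0.012 on slide 1 and Csf1r -0.028 on slide 2. In G against T, the 15 arrays gave 0.028 for Cd5l, 0.037 for Vsig4, -0.015 for Cd163 and 0.011 for Lyz2. Slide 1 gave 0.28 for Cd5l, 0.26 for Vsig4, -0.082 for Cd163 and 0.29 for Lyz2, and slide 2 gave -0.074 for Timd4. Median scaling gave -0.0046 for Timd4, -0.018 for Cd163 and 0.029 for Lyz2. The replicate block gave 0.0063 for Vsig4 and -0.031 for Cd163. In G against C, slide 2 gave -0.17 for Cd5l, -0.016 for Timd4, -0.062 for Csf1r and -0.085 for Lyz2, and the processed signal -0.30 for Timd4. With 1 liver left out, Clec4f ranged from -0.17 to 0.093 in T against C. In G against T the ranges were -0.0098 to 0.25 for Clec4f, -0.24 to 0.050 for Cd5l, -0.20 to 0.041 for Vsig4, -0.071 to 0.069 for Timd4, -0.033 to 0.058 for Cd163 and -0.083 to 0.070 for Lyz2. In G against C they were -0.074 to 0.0024 for Cd163 and -0.042 to 0.098 for Csf1r.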
